A study of Mus musculus with 10 samples.

Results

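The leukocyte integrin genes Itgal, Itgam, Itgax, Itgb2, Itga4, Itgb7 and Itgae and the vascular ligand genes Icam1, Vcam1 and Selp were followed in the RNA of 10 subcutaneous CT26 tumors. The 10 genes were picked by name from the 36009 rows of the deposited count table, and each name was found in 1 row. CT26 cells come from a colorectal carcinoma of the mouse, and the tumors grew in female wild-type BALB/c mice. Each library was made from the piece of tumor taken out at surgery, before a hydrogel loaded with poly(I:C), a synthetic double-stranded RNA, was placed on the tumor left behind, so every library was untreated. Tumors were grouped by what the remaining tumor then did. The 6 responders regressed completely and the 4 non-responders grew without delay, and the comparison asks whether the 2 kinds of tumor already differed at surgery.

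Integrins are cell surface receptors made of 1 alpha and 1 beta chain, and leukocytes use them to stop on vessel walls, to enter tissue and to hold on to other cells. The beta2 chain (Itgb2) pairs with alphaL (Itgal, giving LFA-1 of lymphocytes and other leukocytes), alphaM (Itgam, the CD11b chain of myeloid cells) or alphaX (Itgax, CD11c of dendritic cells and many macrophages). The alpha4 chain (Itga4) pairs with beta1 or with beta7 (Itgb7), and alphaE (Itgae, CD103) pairs with beta7 on T cells that stay in epithelia and on a subset of dendritic cells. On the vessel side, P-selectin (Selp) slows passing leukocytes, ICAM-1 (Icam1) binds the beta2 integrins and VCAM-1 (Vcam1) binds the alpha4 integrins.

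Library totals ran from 29065126 to 38042544 estimated counts in responders and from 23374649 to 32986456 in non-responders, and the 10 genes held between 202 and 34575 counts in a tumor. No 2 libraries were alike within counting error (chi-square per degree of freedom at least 10.79 over the 45 pairs). A pair of tumors stood at the ends for most of the genes. Non-responder 1 had the lowest level of 6 of the 10 genes, and responder 5 the highest level of 6. The 4 general leukocyte markers and the 7 endothelial markers were present in every tumor, whereas the epithelial keratin genes Krt8 and Krt18 were at 0 in some of them.

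Of the 10 genes, Itgb2, Itgam and Itga4 were higher in responders at an adjusted p under 0.05 and none was lower. This 3 of 10 stands beside 4.71% of all 16041 genes tested that passed in that direction, 3.35% in the other and 8.06% in either (edgeR's quasi-likelihood test with Benjamini-Hochberg adjustment over all genes, used for every adjusted p unless another test is named). The estimate was higher in responders for 8 of the 10 genes, against 48.2% of all genes, and its median was 0.52 on the log2 scale, against -0.009 over all genes tested. In 4 genes, Itgal, Itgam, Itgb2 and Itga4, the lowest responder lay above the highest non-responder, which was so for 5.84% of all genes, with 4.55% apart in the other direction and 10.4% in either. These tumors were measured as bulk RNA, where fewer cells of a type and less RNA per cell cannot be told apart. The calls were also narrow. Leaving out any 1 of responders 1, 2 and 3 or of non-responders 1, 3 and 4 ended the call of all 3 genes, with values given gene by gene.

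**Figure D1:**
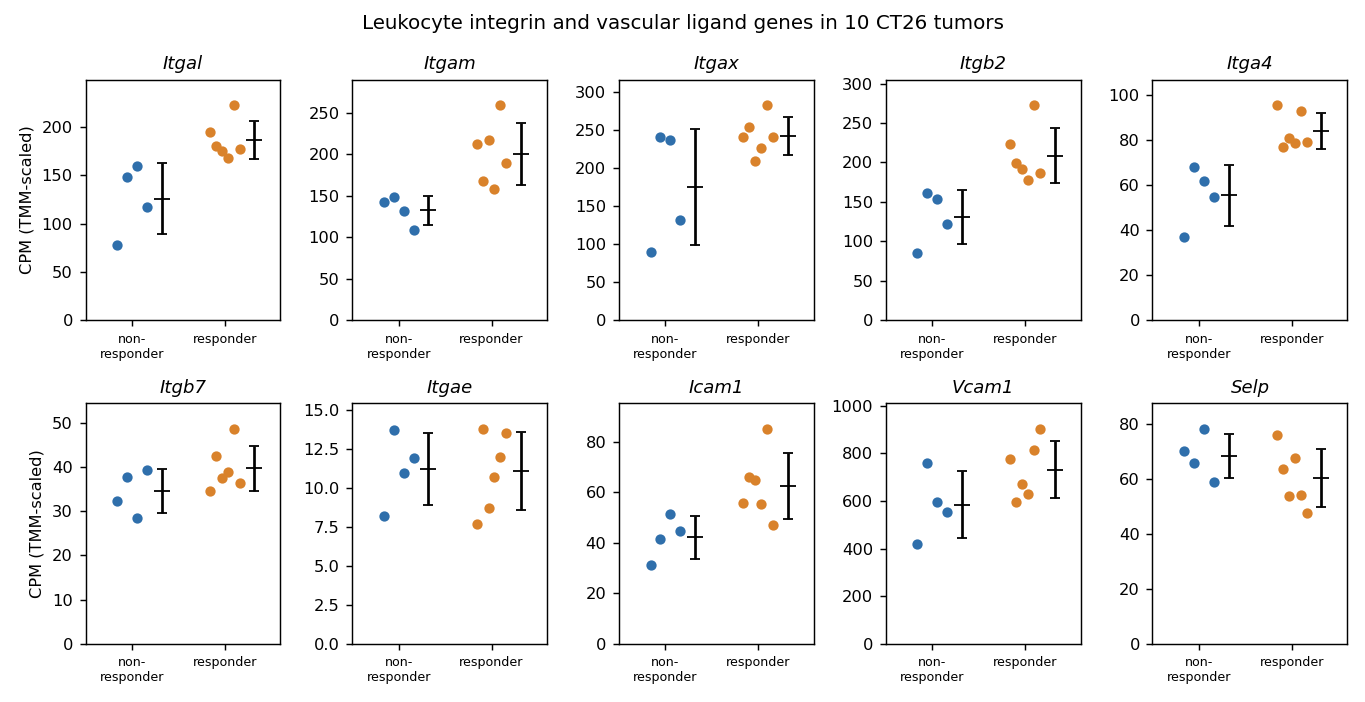
Level of each gene in every tumor, in CPM (counts scaled to a common library size) on a linear axis from 0, with 4 non-responders (blue) and 6 responders (orange). Each point is a tumor, and the bars show the mean and SD; the groups stand apart for Itgal, Itgam, Itgb2 and Itga4 and overlap for the other genes.

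Itgb2, the beta chain that all CD11 integrins share, lies on chromosome 10 (77530252 to 77565708, plus strand, GRCm38). Its level was 178 CPM (counts relative to the TMM-scaled library total) in the lowest responder, 195 at the median and 272 in the highest. It was 85.3, 161, 153 and 122 CPM in non-responders 1 to 4. Responder 5 was the highest and non-responder 1 the lowest of all, and the groups did not overlap. Responders averaged 208 ± 34.9 CPM (SD, n = 6) and non-responders 130 ± 34.3 (SD, n = 4). The log2 fold change was 0.68 (SE 0.17, 95% interval 0.30 to 1.06, adjusted p = 0.0413). The adjusted p rose above the threshold, to between 0.0529 and 0.102, without responder 1, 2, 3, 5 or 6 or without non-responder 1, 3 or 4.

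Itgam, the CD11b alpha chain, lies on chromosome 7 (128062640 to 128118491, plus strand). Responders ran from 158 CPM through a median of 201 to 259, and non-responders 1 to 4 had 142, 148, 132 and 108 CPM. The gap between the groups was small, with responder 4 at 158 CPM next to non-responder 2 at 148. Means were 200 ± 37.0 (SD, n = 6) and 132 ± 17.4 CPM (SD, n = 4), and the log2 fold change was 0.60 (SE 0.14, 95% interval 0.30 to 0.90, adjusted p = 0.033). Without responder 1, 2 or 3 or non-responder 1, 3 or 4, the adjusted p was between 0.0501 and 0.088. The annotation also places Gm49368, another coding gene on the same strand, over Itgam. It held at most 126 counts in a tumor, and how reads were split between the 2 genes is uncertain.

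Itgal, the LFA-1 alpha chain, lies 727.5 kb before Itgam on the same strand of chromosome 7 (127296260 to 127335138). It measured 168 CPM in the lowest responder, 179 at the median and 223 in the highest, against 77.7, 149, 159 and 118 in non-responders 1 to 4. All 6 responders were above all 4 non-responders, with non-responder 1 far below the rest. The log2 fold change of 0.57 (SE 0.17, 95% interval 0.20 to 0.94) had an adjusted p of 0.0583 and so did not pass. DESeq2 gave it an adjusted p of 0.00862, and the edgeR value was 0.044 without non-responder 2.

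Itgax, the CD11c chain, starts 11.1 kb after the end of Itgam (chromosome 7, 128129547 to 128150657, plus strand). Its responders were close together, from 209 through a median of 241 to 282 CPM. Non-responders 1 to 4 had 89.6, 241, 236 and 131 CPM. Here the non-responders fell into 2 tumors at the responder level and 2 below it, and the groups overlapped. The log2 fold change was 0.47 (SE 0.24, 95% interval -0.05 to 0.99, adjusted p = 0.21). Itgad, the remaining beta2 partner and the next gene on the chromosome, 3.7 kb further on, held at most 81 counts in a tumor and had an adjusted p of 0.356.

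RefSeq promoter sequence (build GRCm38.p6) was matched for 6 of the 10 genes, Itgam, Itgax, Itga4, Itgb7, Icam1 and Selp, and was not matched for Itgal, Itgb2, Itgae and Vcam1. The 250 bases before the start site are shown for the neighbours Itgam, which passed the test, and Itgax, which did not. Their log2 fold changes, 0.60 (95% interval 0.30 to 0.90) and 0.47 (-0.05 to 0.99), were not compared with each other. A part of the promoter sequence in them was not tested. Capitals mark matches, on either strand, to GAGGAA, a core that the myeloid factor PU.1 can bind, or to GGGCGG, a core of Sp1 sites.
Itgam, chr7:128062390-128062639, plus strand: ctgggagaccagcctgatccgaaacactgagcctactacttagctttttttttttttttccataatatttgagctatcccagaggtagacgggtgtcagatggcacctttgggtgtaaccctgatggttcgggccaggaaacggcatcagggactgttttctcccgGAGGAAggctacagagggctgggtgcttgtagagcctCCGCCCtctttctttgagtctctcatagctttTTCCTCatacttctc
Itgax, chr7:128129300-128129549, plus strand: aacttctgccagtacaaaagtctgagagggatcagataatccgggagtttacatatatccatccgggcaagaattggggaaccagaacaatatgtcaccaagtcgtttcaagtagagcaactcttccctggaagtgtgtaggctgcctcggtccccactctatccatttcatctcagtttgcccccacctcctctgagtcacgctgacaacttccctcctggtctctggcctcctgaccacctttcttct
Counted back from 1 at the base before the start, the Itgam window held GAGGAA at bases 84 to 79, its reverse complement TTCCTC at 15 to 10 and the reverse complement of GGGCGG at 47 to 42. The Itgax window held none of the motifs searched. Of 32817 mouse promoter windows of the same length, 23.3% held GAGGAA and 32.7% held GGGCGG, and no match overlapped another.

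The 4 alpha chains that can pair with beta2 were then set against each other per length (CPM per kb of summed exons), since levels of different genes compare only so. Itgax made up 42.5% ± 3.07 of the alpha chain signal (SD, n = 6 responders) and 42.7% ± 8.27 (SD, n = 4 non-responders). Itgam made up 33.4% ± 3.30 and 33.8% ± 9.79, Itgal 23.9% ± 0.495 and 23.3% ± 2.86, and Itgad 0.234% and 0.201%. The mean shares of the 2 groups differed by less than the SD of the non-responders. Non-responder 1 departed from this make-up, with 48.0% Itgam and 31.7% Itgax, against 26.2% to 38% Itgam in the other 9 tumors.

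**Figure D2:**
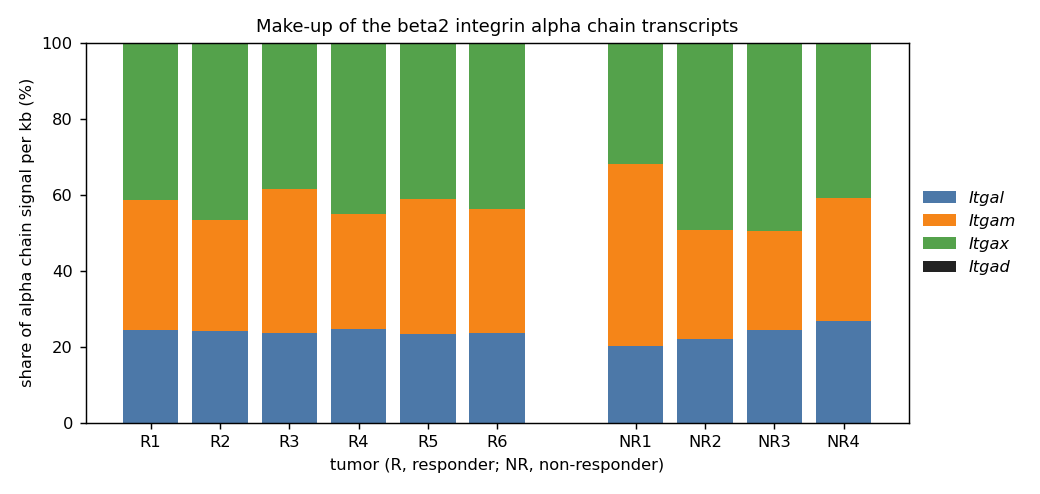
Share of each beta2-pairing alpha chain in the summed alpha chain signal per kb, in percent, as a stacked bar for each of 6 responders (R) and 4 non-responders (NR). Itgax is the largest part except in non-responder 1, where Itgam makes up 48.0%; Itgad is too low to see.

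Itga4, the alpha4 chain by which lymphocytes, monocytes and other leukocytes bind VCAM-1, lies on chromosome 2 (79255426 to 79333123, plus strand). Its level was 76.8 CPM in the lowest responder, 80.0 at the median and 95.2 in the highest. Non-responders 1 to 4 had 36.9, 67.9, 61.5 and 54.8 CPM. The groups stood apart, with non-responder 1 again the lowest. Means of 83.9 ± 8.03 (SD, n = 6) and 55.3 ± 13.4 CPM (SD, n = 4) gave a log2 fold change of 0.60 (SE 0.14, 95% interval 0.29 to 0.91, adjusted p = 0.0347). Without responder 1, 2, 3 or 5 or non-responder 1, 3 or 4, the adjusted p was between 0.0554 and 0.088. Cerkl overlaps Itga4 on the opposite strand and held at most 46 counts. The promoter of Itga4 is shown as that of the other called gene with a RefSeq match, with its single GGGCGG, at bases 114 to 109, in capitals.
Itga4, chr2:79255176-79255425, plus strand: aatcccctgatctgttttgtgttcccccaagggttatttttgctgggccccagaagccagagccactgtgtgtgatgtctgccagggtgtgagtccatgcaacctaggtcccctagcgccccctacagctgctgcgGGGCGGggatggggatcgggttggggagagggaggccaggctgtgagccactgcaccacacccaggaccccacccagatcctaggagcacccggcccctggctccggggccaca

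Neither Itgb7 nor Itgae passed the test. Itgb7 (chromosome 15, 102215995 to 102231944, minus strand) ranged from 34.6 through 38.2 to 48.6 CPM in responders and was 32.3, 37.9, 28.6 and 39.4 CPM in non-responders 1 to 4. The groups overlapped, and the log2 fold change was 0.20 (SE 0.11, 95% interval -0.04 to 0.44, adjusted p = 0.25). Itgae (chromosome 11, 73090583 to 73147446, plus strand) was the member with the fewest counts, from 202 to 517 in a tumor. It ranged from 7.66 through 11.3 to 13.7 CPM in responders and was 8.16, 13.7, 10.9 and 11.9 CPM in non-responders. Both groups covered nearly the same range, and the log2 fold change was -0.02 (SE 0.18, 95% interval -0.42 to 0.39, adjusted p = 0.964), with a sign that turned in some alternative fits. That interval holds the changes compatible with these tumors, and the smallest change that could have been detected was not computed. Haspin lies on the opposite strand within Itgae and held up to 656 counts, more than Itgae itself, and whether the 2 genes share exon sequence was not tested.

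Icam1 (chromosome 9, 21015985 to 21028817, plus strand) ran from 46.9 CPM through a median of 60.3 to 84.9 in responders. Non-responders 1 to 4 had 31.0, 41.6, 51.4 and 44.8 CPM. Of the 6 responders, 5 were above every non-responder, and responder 6 lay among them. The log2 fold change was 0.56 (SE 0.17, 95% interval 0.20 to 0.93), and its adjusted p of 0.0596 did not pass, while DESeq2 gave 0.0103. Its promoter is shown because inflammatory signals are known to induce Icam1, and capitals mark GGAAATTCC (a match to GGAANTTCC, a form of the NF-kB site), TTCCCGGAA (a match to TTCNNNGAA, the spacing of STAT sites) and the reverse complement of GGGCGG.
Icam1, chr9:21015690-21015939, plus strand: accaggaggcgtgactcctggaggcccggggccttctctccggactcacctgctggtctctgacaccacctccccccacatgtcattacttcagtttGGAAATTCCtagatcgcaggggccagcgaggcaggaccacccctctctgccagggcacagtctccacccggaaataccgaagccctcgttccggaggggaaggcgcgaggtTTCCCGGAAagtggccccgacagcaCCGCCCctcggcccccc
These matches lay at bases 153 to 145, 42 to 34 and 17 to 12 before the start. GGAANTTCC was present in 0.811% and TTCNNNGAA in 7.01% of the mouse windows. The Selp and Itgb7 windows held none of the motifs searched.

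Vcam1 (chromosome 3, 116109949 to 116129688, minus strand) had the highest level of the 10 genes, also per length. It ran from 597 CPM through a median of 725 to 902 in responders and was 421, 762, 597 and 555 CPM in non-responders 1 to 4. Non-responder 2 lay within the upper range of responders, so the groups overlapped. The log2 fold change was 0.33 (SE 0.16, 95% interval -0.02 to 0.67, adjusted p = 0.198). Selp (chromosome 1, 164115264 to 164150026, plus strand) had its estimate on the other side. Responders ranged from 47.6 through 59.0 to 76.2 CPM, non-responders 1 to 4 had 70.3, 66.0, 78.2 and 58.8 CPM, and the log2 fold change was -0.17 (SE 0.13, 95% interval -0.45 to 0.10, adjusted p = 0.381). The groups overlapped, and non-responder 1, the lowest tumor for 6 other genes, was not low for Selp. Thus 0 of 3 vascular ligand genes passed by edgeR or limma-voom. An unadjusted p under 0.05 in edgeR was found for 1 of 3 (Icam1), against 29.1% of all genes tested. By DESeq2 1 of 3 (Icam1) passed, against 2573 of all 16041 genes.

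Per length, the 10 genes spanned a 34.3-fold range in responders. Vcam1 was at 82.5 CPM per kb, Itgb2 at 68.3, Itgax at 50.4, Itgam at 39.9 and Itgal at 28.4. Itgb7, Icam1 and Selp were near each other, at 14.4, 14.3 and 13.7 CPM per kb, followed by Itga4 at 6.0 and Itgae at 2.41. Over the 6 responders, the range of each of the 5 highest genes overlapped that of its neighbour. Within every responder, however, those 5 genes kept that order. The ranges of Itgb7, Icam1 and Selp overlapped too, and their order changed from tumor to tumor. Itgal was above Itgb7, Selp above Itga4 and Itga4 above Itgae in every responder. By their means, the first 5 and the last 2 kept that order in non-responders. Selp (15.5) stood above Itgb7 (12.5) and Icam1 (9.68) there. The ranges of Itga4 (2.64 to 4.86) and Itgae (1.78 to 2.98) overlapped, but Itga4 was above Itgae within every non-responder. With the longest transcript as the length, the span was 62.4-fold and Icam1 and Selp came before Itgb7.

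The 3 ligand genes were also compared with genes that define endothelium. Vascular cadherin (Cdh5) stood at 4.11 CPM per kb in responders and 3.91 in non-responders, and the VEGF receptor gene Kdr at 1.09 and 0.917. Pecam1, which leukocytes and platelets also carry, stood at 12.2 and 9.06, and its values overlapped those of Icam1 (14.3 and 9.68). Icam1, Vcam1 and Selp had higher means per length than Cdh5 and Kdr in both groups, and so had E-selectin (Sele), which is largely restricted to activated endothelium, at 68.4 and 75.5. Icam1 and Vcam1 are known in many stromal and blood-derived cells and Selp also in platelets, and the cells that made these transcripts cannot be told apart in these libraries. The ligands are therefore named here by what the proteins do on vessels. The summed platelet markers ran from 24.3 to 33.1 CPM in responders and from 23.4 to 44.8 in non-responders, with the defining marker Gp9 at 0 in some tumors.

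Markers of leukocytes were compared in the same tumors. Ptprc (CD45), carried by leukocytes of all kinds, averaged 381 ± 63.1 CPM over the responders (SD, n = 6) and 251 ± 55.6 over the others (SD, n = 4), and its log2 fold change was 0.60 (SE 0.15, adjusted p = 0.0413). Its call held in 2 of the 10 edgeR fits that left out a tumor, with adjusted p up to 0.103 in the others. The sum of the 4 leukocyte markers ran from 940 to 1420 CPM in responders and from 620 to 869 in non-responders, and 3 of the 4 passed. Counts of markers that passed, here and below, stand beside 4.71% of all genes tested that passed higher in responders and 8.06% in either direction. The 6 macrophage markers, 3 of which passed, summed to between 1840 and 2670 against 1470 to 1830 CPM. The 5 NK cell markers summed to between 20.3 and 42.8 against 6.82 to 18.1 CPM. Of these NK cell markers 4 were tested and 1 passed, and Klra8 was at 0 in some tumors. The 5 CD8 and cytotoxic markers, 2 of which passed, summed to between 105 and 271 against 23.1 to 118 CPM. The 6 T cell markers summed to between 43.6 and 142 against 26.5 to 51.6 CPM, with adjusted p between 0.0523 and 0.127. The sums of the 6 dendritic cell markers, 1 of which passed and was higher in responders, overlapped, at 44.4 to 62.4 and 44.6 to 57.9 CPM, as did those of the neutrophil markers, at 75.1 to 154 and 59.3 to 126. The 7 endothelial markers summed to between 93.6 and 150 CPM in responders and 75.8 and 114 in non-responders, with all 7 estimates above 0 and adjusted p between 0.184 and 0.934. That sum was mostly Pecam1, which leukocytes and platelets also carry. Pecam1 averaged 76.0 of 115 CPM in responders and 56.4 of 92.6 in non-responders. Among other tissues, 2 of 5 skeletal muscle markers passed (348 to 1120 against 308 to 402 CPM) and 2 of 5 mast cell markers (49.4 to 173 against 26.2 to 57.0). Adipocyte sums (15.6 to 52.1 against 8.54 to 19.2 CPM) overlapped, with 5 of 6 responders above every non-responder. The 4 adipocyte markers tested had adjusted p between 0.0503 and 0.0701. B cell sums (4.52 to 9.65 against 3.03 to 5.30) overlapped, as did those of the T cell, CD8 and cytotoxic, skeletal muscle and mast cell markers. The sum of the 5 monocyte markers (4520 to 6700 against 5140 to 8130 CPM) was mostly Fn1, which stromal cells also make, while 4 of the 5 had an estimate above 0 and 1 passed, higher in responders. The monocyte sums of the groups overlapped, and so did those of fibroblast (5480 to 6560 against 4650 to 7600) and keratinocyte markers (3.89 to 5.47 against 3.17 to 9.18). Sums of erythroid (12.1 to 27.8 against 4.26 to 33.7) and epithelial markers (13.5 to 38.3 against 34.7 to 77.6) overlapped as well. The part of any of these in the integrin values was not tested.

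To see whether a gene moved apart from the leukocyte or endothelial content, each integrin gene was divided by Ptprc and each ligand gene by the mean of the 7 endothelial markers within the same tumor. After adjustment over the 10 ratios, 0 passed, and 2 had an unadjusted p under 0.05 (two-sided exact permutation test over all 210 ways to divide the tumors, with a smallest possible p of 0.00476). Itgb2 relative to Ptprc differed by 0.09 on the log2 scale (-0.87 ± 0.091 in responders, n = 6, and -0.96 ± 0.089 in non-responders, n = 4, exact p = 0.181). Itgal, Itgam, Itgax and Itga4 relative to Ptprc differed by between -0.03 and 0.02. The 2 ratios with the smallest p were those of the beta7 pair. Itgae relative to Ptprc was -5.12 ± 0.416 in responders (n = 6) and -4.48 ± 0.160 in non-responders (n = 4), a difference of -0.64 (exact p = 0.0286, adjusted p = 0.191). In 5 of 6 responders it lay below every non-responder. Itgb7 relative to Ptprc differed by -0.41 (exact p = 0.0381, adjusted p = 0.191). By edgeR the log2 fold change was -0.02 for Itgae and 0.20 for Itgb7, against 0.60 for Ptprc. The lower ratios thus follow from the higher Ptprc of responders, and neither gene itself passed.

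Relative to the endothelial markers, Icam1 differed by 0.37 on the log2 scale (exact p = 0.0667, adjusted p = 0.203), Vcam1 by 0.15 (exact p = 0.514, adjusted p = 0.857) and Selp by -0.38 (exact p = 0.081, adjusted p = 0.203). None of these passed. The groups overlapped in each of the 3 ratios.

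**Figure D3:**
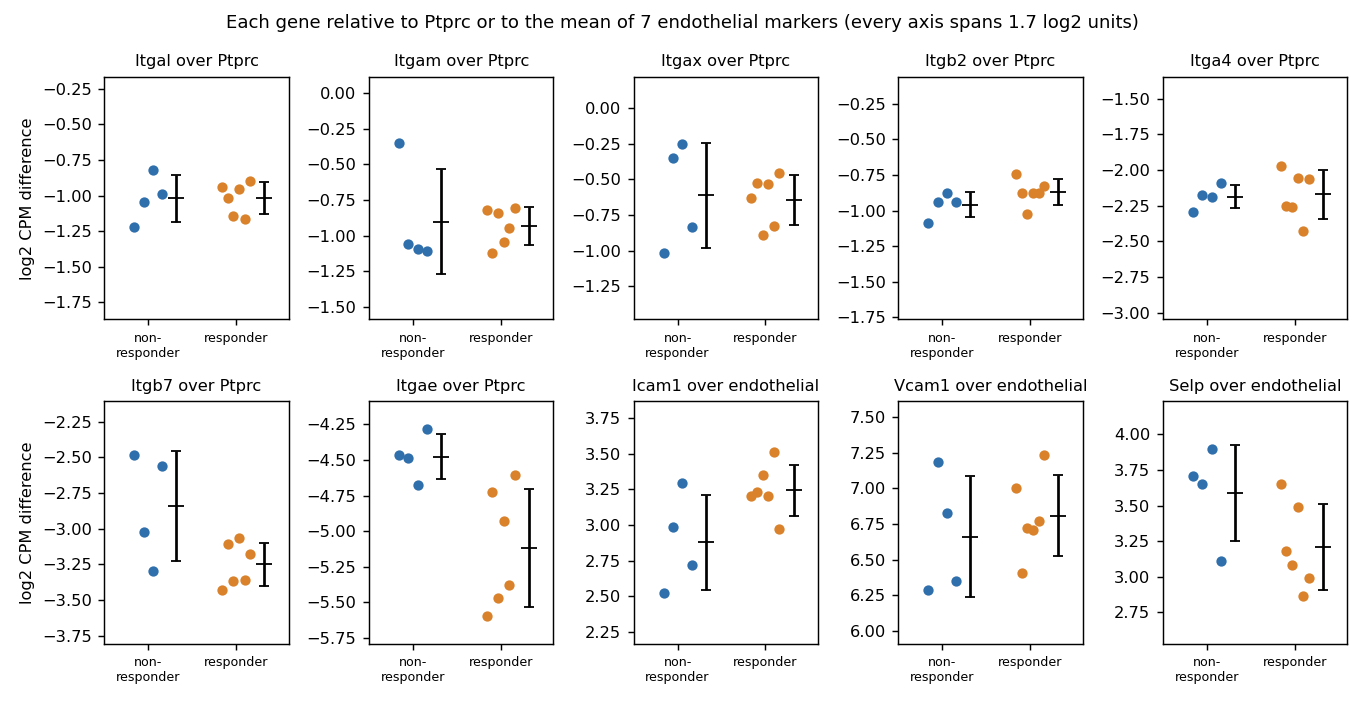
Log2 CPM of each integrin gene minus that of Ptprc, and of each ligand gene minus the mean of 7 endothelial markers, in 4 non-responders (blue) and 6 responders (orange), with mean and SD. Every axis spans the same number of log2 units; the groups overlap in all 10 panels, and Itgam in non-responder 1 stands alone at -0.352.

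Ratios between chains that pair were compared in the same way, and 0 of 5 passed after adjustment over the 5, with 0 of 5 at an unadjusted p under 0.05 by the exact permutation test. Itga4 over Itgb7 came nearest, at 1.08 ± 0.210 (SD, n = 6 responders) and 0.65 ± 0.401 (SD, n = 4 non-responders), a log2 difference of 0.43 (exact p = 0.0571, adjusted p = 0.285). The values of the 2 groups overlapped. Itgal, Itgam and Itgax over Itgb2 differed by -0.09, -0.12 and -0.12, and Itgae over Itgb7 by -0.23 (exact p = 0.148, 0.714, 0.400 and 0.243).

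How the genes varied from tumor to tumor was described by Pearson's r of log2 CPM over the 10 tumors after each group's mean was removed. These values share the same libraries and are given as a description. Itgb2 followed Itgal (r = 0.964), Itga4 (0.933) and Itgax (0.892) closely but Itgam less so (0.425), and Itgam and Itgax, neighbours in the genome, had an r of 0.193. Both low values include non-responder 1, where Itgam relative to Itgb2 was 0.733 on the log2 scale. It was between -0.247 and 0.183 in the other tumors, and r without non-responder 1 was not computed. Of the ligands, Icam1 (0.762) and Vcam1 (0.731) went with Itgb2 and Selp did not (0.0551). Icam1 and Vcam1 had an r of only 0.202 with each other, and Itgae and Selp one of -0.474.

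Over the same tumors, the genes most like Itgb2 were Peli1 (r = 0.993), H2-Eb1, an MHC class II chain (0.983), and Tlr6 (0.982), among 13726 genes with an average of at least 1 CPM. Those most like Itgae were Xlr (0.982), Immp2l (0.951) and Ccr7, a homing receptor of dendritic cells and T cells (0.951). Icam1 was most like BC035044 (0.960), Sema4a (0.959) and Eomes, a transcription factor of NK cells and T cells (0.954). Vcam1 was most like Sla (0.961), Ulk2 (0.960) and Tlr7 (0.948), and Selp like Bdkrb1, a bradykinin receptor (0.952), Arid5a (0.951) and Rai14 (0.917). No gene was named for more than 1 of these 5.

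Beyond the 10 genes, 45 other genes of leukocyte adhesion were listed by role, and 4 of the 44 that were tested passed, all higher in responders, where 4.71% of all genes passed in that direction and 8.06% in either. The median log2 fold change of the list was 0.07. At an unadjusted p under 0.05 there were 10 genes higher and 4 lower, 14 of 44, against 29.1% of all genes tested. The 12 genes of integrin activation and its control include the inhibitors Sharpin and Itgb1bp1. All 12 had an estimate above 0, against 48.2% of all genes, and 3 passed. Their log2 fold changes ran from 0.008 to 0.849, with a median of 0.16. Fermt3 encodes kindlin-3, which binds the tails of integrin beta chains in blood cells, and it measured 86.0 ± 9.0 CPM (SD, n = 6 responders) and 61.8 ± 7.54 (SD, n = 4 non-responders; log2 fold change 0.48, SE 0.09, adjusted p = 0.0264). Fyb encodes the adaptor ADAP of T cells and myeloid cells and was at 116 ± 12.3 and 70.9 ± 17.3 CPM (0.71, SE 0.14, adjusted p = 0.0266). Cyth1, encoding the beta2 tail binder cytohesin-1, was at 51.4 ± 3.46 and 43.3 ± 3.17 CPM (0.25, SE 0.06, adjusted p = 0.0403), with groups that overlapped. Talin (Tln1), which opens integrins in all cells, was abundant and had a log2 fold change of 0.05 (677 and 656 CPM, adjusted p = 0.639). Fermt3 and Fyb lost significance without responder 3, non-responder 1 or non-responder 4 (adjusted p between 0.0555 and 0.0768), and Cyth1 in 8 of the 10 fits that left out a tumor, all but those without responder 4 or non-responder 2 (up to 0.104).

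**Figure D4:**
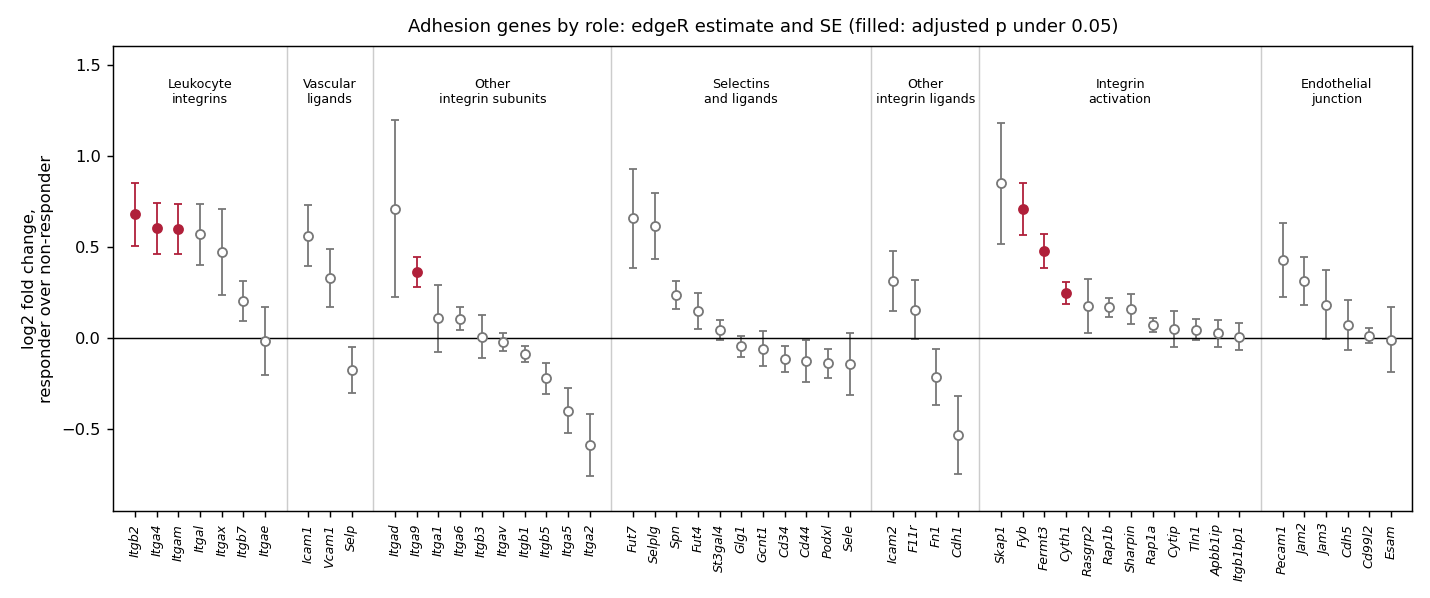
Log2 fold change of responders over non-responders with its SE from edgeR, for the 10 genes (leukocyte integrins and vascular ligands) and other listed adhesion genes by role. Filled points passed at an adjusted p under 0.05; they are Itgb2, Itga4 and Itgam, and Itga9, Fyb, Fermt3 and Cyth1, all above 0.

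Among 10 other integrin chains, Itga9 passed, at 85.5 ± 9.35 CPM (SD, n = 6 responders) and 66.6 ± 5.04 (SD, n = 4 non-responders; log2 fold change 0.36, SE 0.08, adjusted p = 0.0334), and it kept that call in 3 of the 10 fits that left out a tumor, those without responder 2, responder 4 or non-responder 2 (up to 0.0882 in the others). This 1 of 10 stands beside 4.71% of all genes tested that passed higher in responders and 8.06% in either direction. Itga9 encodes an alpha chain that, like alpha4, pairs with beta1 and binds VCAM-1. Itgb1, the beta chain found on nearly all cells, was at 952 ± 33.4 and 1011 ± 34.5 CPM (log2 fold change -0.09, adjusted p = 0.217). The collagen receptor chain Itga2 (-0.59, adjusted p = 0.0567) and the fibronectin receptor chain Itga5 (-0.40, adjusted p = 0.0654) had estimates below 0 that did not pass. Both passed under DESeq2 (0.0111 and 0.0213), which called 2573 of all 16041 genes.

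Of the 12 selectin and selectin ligand genes, 0 passed by edgeR or limma-voom and 2 by DESeq2, with 3 at an unadjusted p under 0.05 in edgeR. Over all 16041 genes, 2573 passed by DESeq2, and 29.1% had an unadjusted p under 0.05 in edgeR. Selplg, the gene of the selectin ligand PSGL-1 on leukocytes, was at 65.2 ± 15.6 CPM (SD, n = 6 responders) and 42.6 ± 9.34 (SD, n = 4 non-responders; log2 fold change 0.61, SE 0.18, adjusted p = 0.0597; 0.00923 by DESeq2). Sele (199 ± 43.3 and 220 ± 42.1 CPM, adjusted p = 0.62) did not pass. Of the other ligands, Icam2 (3.0 and 2.41 CPM, adjusted p = 0.239) and E-cadherin, Cdh1, the partner of alphaE beta7 (4.15 and 6.0 CPM, adjusted p = 0.128), were low. Madcam1, the gut vessel ligand of alpha4 beta7, was too low to test. Of 6 endothelial junction genes, 0 passed by edgeR, DESeq2 or limma-voom, with 1 at an unadjusted p under 0.05 in edgeR.

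**Figure D5:**
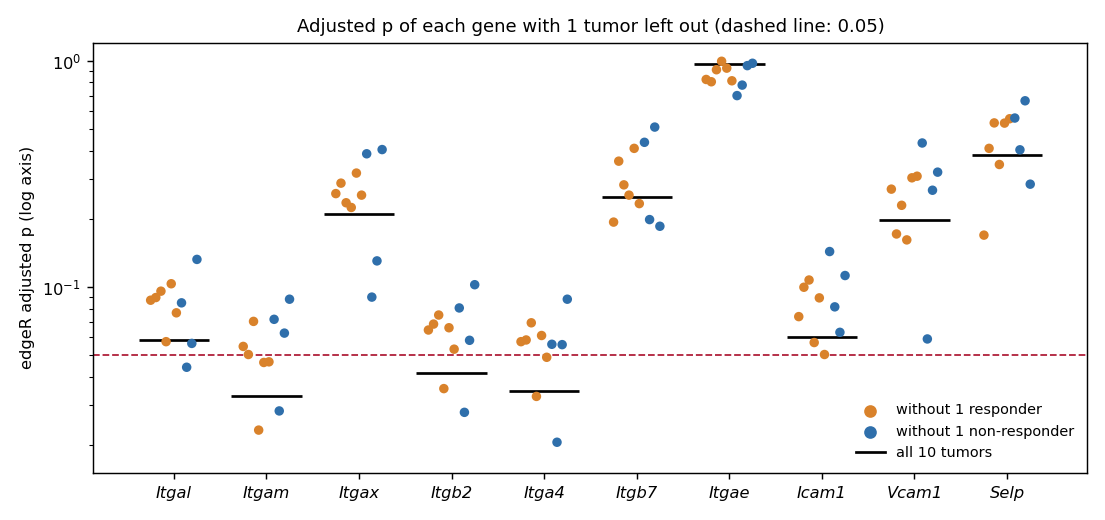
Adjusted p of each of the 10 genes by edgeR (log axis) with all 10 tumors (black line) and in 10 fits that each left out 1 tumor, a responder (orange) or a non-responder (blue). Itgam, Itgb2 and Itga4 lie on both sides of the dashed threshold of 0.05, in 4, 2 and 3 fits below it.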

How the data were processed

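Poly(A) RNA from 10 CT26 tumors was sequenced in paired ends. The authors checked reads with FastQC, estimated transcript abundance with kallisto and summed it to genes with tximport on mm10 (GRCm38), and the deposited values are estimated counts per gene, not scaled to depth. The annotation release and strand setting are not given in the sources used here. Of the values, 45.1% were fractional, and counts were rounded.

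Responders and non-responders were taken from the labels. Replicate numbers follow accession order and do not pair tumors, each tumor came from its own mouse, and the labels give no batch. Genes were kept by filterByExpr (minimum count 10, minimum total 15) and scaled by TMM (factors 0.987 to 1.009), and groups were compared with edgeR 4.0.16 in R 4.3.3 (quasi-likelihood test, two-sided, Benjamini-Hochberg over 16041 genes, threshold 0.05). The method was tested on simulated data. DESeq2 1.42.0, limma-voom (limma 3.58.1), 2 other normalizations, 2 other filters, libraries thinned to the smallest total and leaving out each tumor were alternatives. Ratios used log2 CPM with a prior count of 2, and the alternatives a smaller prior and the mean of 4 leukocyte markers.

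Coordinates and lengths came from GENCODE M21 (GRCm38). The members, the adhesion and marker lists, and the tests were chosen with earlier results of these data known. The text names the 10 members, every other listed adhesion gene that passed, the adhesion genes that the rule names in any case (1 is not reported here), Ptprc, and the 3 genes most like each of 5 members; Itga2 and Itga5 were added after their values were seen.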

Additional observations from a re-analysis of the deposited data

Results flagged for a closer look

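A pair of values stood far from the rest of their group, both from non-responder 1. Itgam relative to Ptprc was -0.352 there on the log2 scale, against -1.11 to -1.06 in the other 3 non-responders, and the gap to the nearest of them took up 0.935 of the range of the group. Itgam relative to Itgb2 was 0.733 there, against -0.217 to -0.119 in the other 3, with a gap of 0.897 of the range. Among 50 groups of values examined this way, 2 were picked out and chance alone gives about 2.5, since it picks out about 1 in 20. In that tumor Itgam was at 142 CPM, within the range of the other non-responders, while Itgb2 (85.3 CPM) and Ptprc (181 CPM) were the lowest of all 10 tumors.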

How the results depend on the processing

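Itgam, Itgb2 and Itga4 passed under all 7 alternatives that kept the 10 tumors, with adjusted p from 0.000747 to 0.0354, 0.00176 to 0.0415 and 0.00102 to 0.0349. DESeq2 called more, with 5 of the 10 genes (Itgal and Icam1 added), 9 of the adhesion list and 2573 of all genes. Leaving out 1 tumor at a time, 0 to 4 of the 10 genes passed, 0 to 6 of the adhesion list and 0 to 1897 of all genes, with 5 to 7 of the 10 genes at an unadjusted p under 0.05. The count of all genes was 0 without non-responder 4, 16 without non-responder 1 and 17 without responder 3 (edgeR, with 4106, 3654 and 4051 at an unadjusted p under 0.05). The log2 fold changes of the 3 called genes stayed above 0 in all 10 of these fits, at 0.51 to 0.67 for Itgam, 0.53 to 0.80 for Itgb2 and 0.46 to 0.72 for Itga4.

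Itgae turned to 0.024 with libraries thinned to the smallest total, and ran from -0.134 to 0.097 when a tumor was left out. Signs near 0 also turned when a tumor was left out for Itgal (-0.068 to 0.066), Itgam (-0.096 to 0.154), Itgax (-0.166 to 0.089) and Itga4 (-0.024 to 0.067) relative to Ptprc, and for Itgam relative to Itgb2 (-0.21 to 0.107). With the mean of 4 leukocyte markers in place of Ptprc, Itgal, Itgam, Itgax and Itga4 differed by 0.10, 0.07, 0.06 and 0.11. Itgb2 then differed by 0.19 (exact p = 0.0286 against 0.181 with Ptprc), Itgb7 by -0.31 (exact p = 0.0571 against 0.0381) and Itgae by -0.54 (exact p = 0.0429 against 0.0286). No ratio passed after adjustment under any of these settings (exact permutation test). The span of levels per length was 62.4-fold by longest transcript. No paired analysis was possible because replicate numbers were given in accession order and each tumor came from a different mouse. The cause of these shifts was not tested.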
